A study of Mus musculus with 6 samples.

Results

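The genes described here encode the glycosyltransferases that build and cap mucin-type sugar chains, with their close relatives, in the small intestine of mouse embryos shortly before birth. Members were taken by gene symbol, from the platform's annotation of an Affymetrix Mouse Genome 430 2.0 array: the numbered Galnt, Galntl, Gcnt, B3gnt, B3galt, B4galt, St3gal, St6gal, St6galnac, St8sia and Fut genes and the symbols that begin with C1galt1. This gave 156 of 45037 probe sets, which stand for 72 of 18161 genes, in 11 enzyme classes. The rule itself reads names and no expression value. Of the 72 genes, 49 had several probe sets (up to 8) and 23 had 1.

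All tissue came from C57BL/6 embryos at stage E18.5, with no genetic change or treatment named in the labels. The epithelium group holds 3 arrays (A, B and C) of epithelium that was shaken off the whole small intestine after 9 hours at 4 °C in a cell recovery solution, and the mesenchyme group holds 3 arrays (A, B and C) of the gut wall that was left. Each array carried the RNA of 1 pool of tissue from 3 embryos, and 3 of 6 pools per tissue had been picked by RT-PCR for the least signal from the other compartment, so the spread between pools may differ from that of unselected pools. The study set out to compare the expression profiles of both compartments.

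Mucin-type O-glycosylation starts in the Golgi, where a polypeptide GalNAc transferase (Galnt) links N-acetylgalactosamine to a serine or threonine. The core 1 synthase C1galt1, which needs the chaperone C1galt1c1 (Cosmc), then adds galactose, while B3gnt6 makes the core 3 chain typical of the gut and Gcnt enzymes add branches. Galactosyltransferases and B3gnt enzymes lengthen the chains, and sialyltransferases and fucosyltransferases cap them. The chains make up much of the mass of the mucus gel and of the glycocalyx of enterocytes. Several members act elsewhere: B4galt7 and B3galt6 build the linker of proteoglycans, St3gal5, St8sia1 and B3gnt5 act on glycolipids, Fut8 and St6gal1 on N-glycans, and St8sia2 and St8sia4 make polysialic acid on neural cell adhesion molecules. The name "mucin-type" thus covers only some of the enzymes.

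The deposited values were log2 expression values, rounded to 0.1, with array medians from 8.1 to 8.7. Below, values in each tissue are given in the order A, B, C, a level is on that log2 scale, and a difference is epithelium minus mesenchyme ± its standard error. A gene was represented by its brightest probe set, and was called where limma gave an adjusted p under 0.05 and the tissues differed 2-fold or more (1 on the log2 scale). Where tissues are said not to overlap, this describes the same arrays that gave the call and adds no support to it. Nothing says that pools came from separate litters, so the p-values do not measure a spread between litters. Standard errors and p-values rest on each probe set's spread between these pools, which limma draws toward that of all probe sets. The latter weighed more, with 31.7 prior against 4 residual degrees of freedom. Marker genes matched the labels: all 12 epithelial markers were called higher in the epithelium, with a summed level (log2 of the summed linear values) of 16.7 to 17.1 there and 12.4 to 13.1 in the mesenchyme. In the mesenchyme, 10 of 10 smooth muscle, 9 of 10 fibroblast, 10 of 10 endothelial, 7 of 10 measured enteric neuron and glia, and 7 of 10 leukocyte markers were called higher. Over all genes, 8.20% were called higher in the epithelium and 15.9% in the mesenchyme. The endothelial list includes Madcam1, a gene on which the pools had been chosen, so its call is no independent check. As each tissue mixes cell types, a higher share of cells that make a transcript and more transcript per cell cannot be told apart.

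Of the 72 genes, 24 were called, and the largest differences toward the epithelium lay among sialyltransferases. In the epithelium, 12 genes were called higher, led by the sialyltransferases St3gal1 and St3gal4 and by Gcnt3, a branching enzyme of mucin chains. The 12 include St8sia6, whose probe sets were called in opposite directions. In the mesenchyme, 12 others were called higher, among them B3gnt9, the glycolipid enzyme B3gnt5 and Galnt18. The remaining 48 were not called, of which 10 passed the adjusted p with less than a 2-fold difference. The epithelial share was 16.7% of members against 8.20% of all genes tested, and the mesenchymal share was 16.7% against 15.9%, so the latter was near the background. In either direction, 33.3% of members and 24.1% of all genes were called. By probe set, 19 of 156 (12.2%) were called higher in the epithelium, with 5.98% of all probe sets, and 27 (17.3%) in the mesenchyme, with 15.5% of all. Together these were 29.5% of the members' probe sets and 21.5% of all probe sets. The median difference was -0.10 over the members and -0.17 over all genes.

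**Figure D1:**
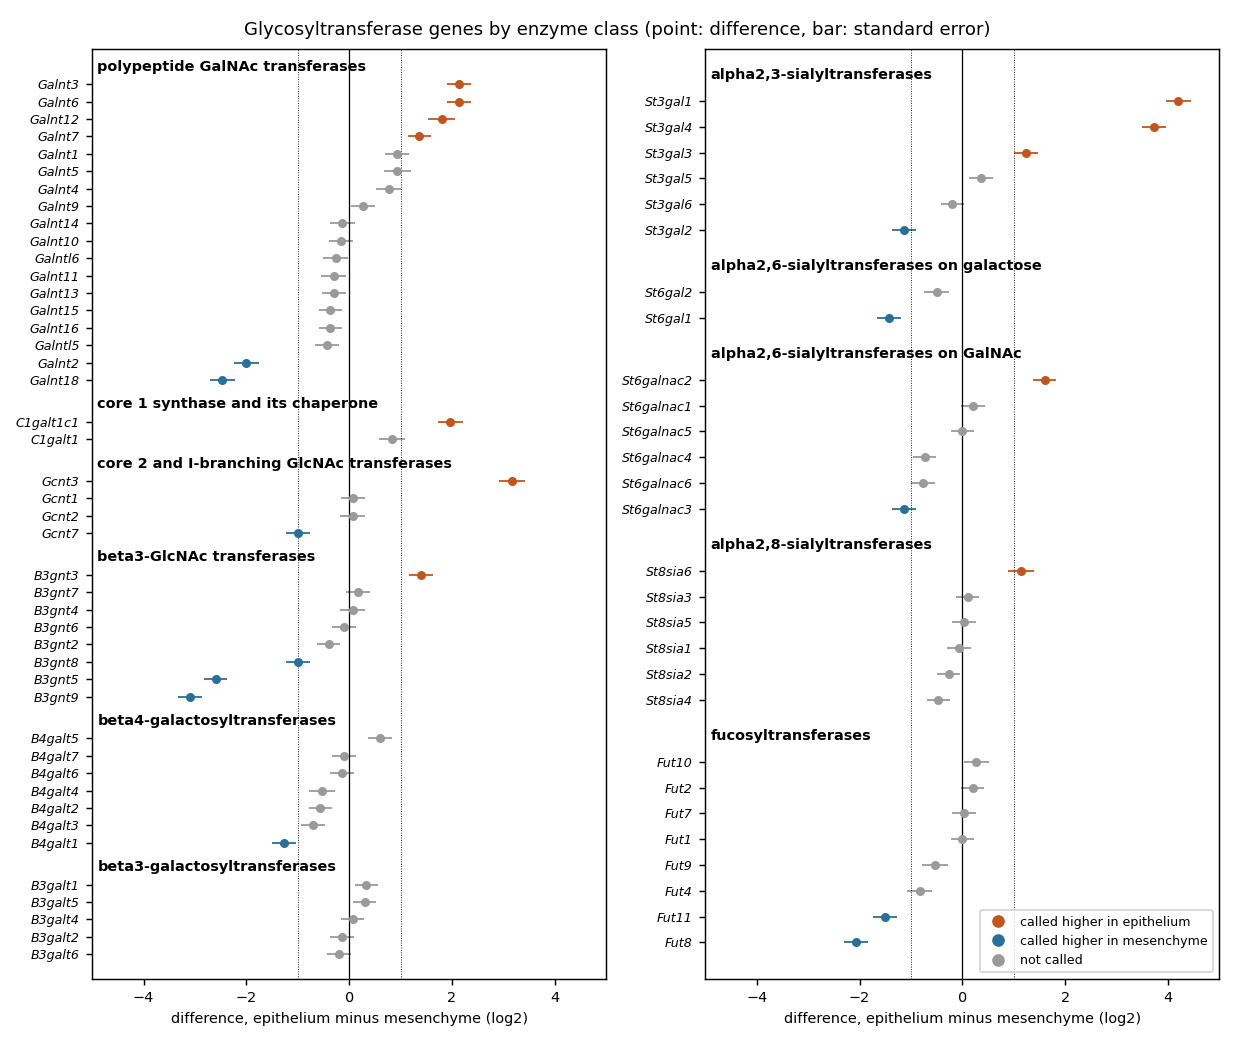
Difference between epithelium and mesenchyme (log2, x axis) of each of the 72 genes (y axis), grouped by enzyme class; points are the brightest probe set, bars its standard error, and dotted lines mark a 2-fold difference. St3gal1 (4.2) and St3gal4 (3.73) lie farthest to the right and B3gnt9 (-3.10) farthest to the left, while all 5 beta3-galactosyltransferases stay between the dotted lines.

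The way members divided between the tissues depended on array scaling, as it did over all genes. The counts were 12 and 12 genes (epithelium and mesenchyme) in the deposited values, 15 and 7 after quantile normalization, 15 and 8 after cyclic loess, 16 and 7 with equal medians, and 10 and 14 with equal spike-in controls. Over all genes the epithelial share of calls moved likewise, from 34.0% to 47.0%, 44.6%, 50.6% and 22.5%, beside 50.0%, 68.2%, 65.2%, 69.6% and 41.7% over the members. The median difference of all genes moved by 0.27, 0.21, 0.30 and -0.26 under these scalings. No called member turned its sign under any of them.

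Promoter sequence is shown for 1 gene of each direction, to let a reader see what lies before the start of genes that differed strongly. RefSeq windows (GRCm38.p6) were found for 52 of the 72 genes. Among called genes there was none for C1galt1c1, Galnt12, Gcnt3, St3gal1, St6galnac2, B3gnt9, Galnt18, Galnt2 and St3gal2, so St3gal4 and B3gnt5 were the genes with the largest difference that had one. The 250 bases before the start lie at chr9:35116865-35117114 (minus strand) for St3gal4 and at chr16:19759984-19760233 (plus strand) for B3gnt5. They are printed 5′ to 3′, with GC boxes (GGGCGG on either strand) and the Gata motifs (TGATAA or AGATAA on either strand) in capitals.

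St3gal4: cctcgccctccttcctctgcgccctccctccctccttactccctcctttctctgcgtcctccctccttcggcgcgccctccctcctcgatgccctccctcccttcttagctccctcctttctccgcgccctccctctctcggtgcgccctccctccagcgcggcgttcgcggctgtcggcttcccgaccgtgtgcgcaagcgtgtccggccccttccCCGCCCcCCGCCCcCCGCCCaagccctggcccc
B3gnt5: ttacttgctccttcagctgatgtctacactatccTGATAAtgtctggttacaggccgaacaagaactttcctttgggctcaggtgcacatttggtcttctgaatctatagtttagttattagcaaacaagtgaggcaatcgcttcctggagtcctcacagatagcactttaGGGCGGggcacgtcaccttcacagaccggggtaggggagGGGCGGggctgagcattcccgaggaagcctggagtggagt

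The St3gal4 window held 3 GC boxes in a row (read on the opposite strand), no Gata motif, and 72.8% G and C. The B3gnt5 window held 2 GC boxes and 1 Gata motif at 51.2% G and C, where the median of all 32851 windows was 52.4%. A GC box was found in 6 of 8 windows of genes called higher in the epithelium, in 6 of 13 windows of those called higher in the mesenchyme, in 23 of 50 windows of members not called and in 32.7% of all windows. A TATA box (TATAAA) was in none of these 21 windows of called genes, in 2 of 50 of members not called and in 12.4% of all. Gata motifs were in 0 of 8, 4 of 13 and 5 of 50 windows of these groups (16.6% of all), and the Cdx motif (TTTATNG) in 0 of 8, 1 of 13 and 2 of 50 (9.81% of all). The Hnf4 motif (CAAAGTCCA) was in the window of B3gnt3 among the called genes and in 0.384% of all windows, and the Hnf1 motif in none of the 21 and in 0.061% of all. E-boxes (CANNTG) were in 3 of 8, 9 of 13 and 34 of 50 windows, and in 66.2% of all windows. Some genes had several windows, and motifs were searched on both strands. The epithelial group of windows includes St8sia6, whose probe sets were called in opposite directions. The matches only describe the letters.

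Among the 18 polypeptide GalNAc transferases, which start the chains, 4 (22.2%, against 8.20% of all genes) were called higher in the epithelium and 2 (11.1%, against 15.9%) in the mesenchyme. The epithelial count was 6 after quantile normalization or loess, 7 with equal medians and 6 without epithelium A. Galnt3 (probe set 1417588_at) stood at 9.8, 10.4 and 9.9 in epithelial pools against 7.9, 7.6 and 8.2 in mesenchymal ones. Galnt6 (1434399_at) stood at 10.6, 11.4 and 11.2 against 8.9, 8.9 and 9.0. For both, every epithelial array lay above every mesenchymal one, and the difference was 2.13 ± 0.24, or 4.39-fold (adjusted p = 1.40e-09 for Galnt3 and 1.24e-09 for Galnt6). Galnt12 (1437760_at), an isoform of the digestive tract, was at 9.7, 10.1 and 9.1 against 8.3, 7.4 and 7.8, a difference of 1.80 ± 0.26 without overlap (adjusted p = 3.00e-07). Galnt7, which prefers substrates that already carry N-acetylgalactosamine, differed by 1.37 ± 0.23, and all 3 of its probe sets were called, with differences up to 2.20.

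The reverse pattern was seen in Galnt2, a widely expressed isoform, and in Galnt18. Galnt2 (1452182_at) had epithelial levels of 9.2, 10.0 and 9.8 and mesenchymal levels of 11.7, 11.9 and 11.4. All 3 of its probe sets were called, with the brightest at -2.0 ± 0.24 (4-fold, adjusted p = 8.30e-09) and the others at -1.13 and -1.70. Galnt18 (1454780_at) stood at 7.1, 7.9 and 7.4 against 10.1, 10.0 and 9.7, a difference of -2.47 ± 0.24 (5.53-fold, adjusted p = 4.76e-11). Neither gene's tissues overlapped.

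The other 12 GalNAc transferases were not called by their brightest probe set. Galnt1 (0.93 ± 0.24), Galnt4 (0.77 ± 0.24) and Galnt5 (0.93 ± 0.26) passed the adjusted p below a 2-fold difference. Galnt5 was called without epithelium A (1.23), without mesenchyme B (1.00) and without mesenchyme C (1.10), and Galnt1 without epithelium A (1.13) or mesenchyme A (1.00). Scaling also made calls of them: Galnt5 after quantile normalization (1.18), loess (1.13) and with equal medians (1.23), Galnt1 after loess (1.02) and with equal medians (1.23), and Galnt4 after quantile normalization (1.00) and with equal medians (1.07). The remaining 9 differed by -0.43 (Galntl5) to 0.27 (Galnt9). Galnt13, Galnt14 and Galntl5 were dim, with tissue means of 5.83 to 6.77, while the 27 bacterial control probe sets had array means of 5.87 to 6.25. At such levels little signal stands above the controls. The call of Galnt3 ended in the mean of its 3 probe sets (0.92), since the dimmer 2 differed by 0.17 and 0.47, and the mean of the 3 probe sets of Galnt6 was 1.16.

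In the step that follows, the chaperone was called higher in the epithelium and the enzyme it serves was not called. C1galt1c1 (1416655_at), without which the core 1 synthase is lost, stood at 11.7, 12.1 and 11.5 in epithelial pools against 10.1, 9.5 and 9.8 in mesenchymal ones. Every epithelial array was higher, by 1.97 ± 0.24 between means (3.91-fold, adjusted p = 8.21e-09). A second probe set of the gene, at 7.6 to 8.0 in all 6 arrays, showed 0.07 ± 0.23, and the mean of both was 1.02. The synthase C1galt1 (1428490_at) stood at 9.8, 10.6 and 9.8 against 9.5, 9.0 and 9.2. Its tissues also did not overlap, but the difference of 0.83 ± 0.24 (adjusted p = 0.00557) stayed under 2-fold. With quantile normalization, loess or equal medians it was called (1.13, 1.11 and 1.13). Whether the chaperone and the synthase differ from each other in this respect was not tested.

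Branching enzymes were led by Gcnt3, the mucin-type enzyme that makes core 2 and core 4 branches. Its probe set 1440409_at stood at 9.1, 9.6 and 8.3 in epithelial pools against 5.6, 6.0 and 5.9 in mesenchymal ones, the latter within the range of the bacterial controls or just below it. The measured difference was 3.17 ± 0.26 (adjusted p = 5.86e-13). Against a level of 7, under which probe sets are treated as dim here, this is at least 4-fold, and below that level no exact fold is given. A second probe set was called at 1.03 ± 0.24, which against the level of 7 is only at least 1.02-fold. The third, at 7.1 to 7.9 in all arrays, was not called (0.23 ± 0.24), and the mean of all 3 was 1.48. Gcnt7 (1446314_at) stood at 7.8, 8.4 and 7.8 against 8.9, 8.9 and 9.2, which is just a 2-fold difference (-1.0 ± 0.24, adjusted p = 0.00062). This call ended when any of 3 arrays was left out (without epithelium A, without epithelium C or without mesenchyme C, -0.9 each), and under quantile normalization (-0.67), loess (-0.76) and equal medians (-0.70). Gcnt2, which makes the I-branch of poly-N-acetyllactosamine, had 8 probe sets from -0.93 to 0.07, and none was called.

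Of the 8 beta3-GlcNAc transferases, which extend chains, 1 (12.5%, against 8.20% of all genes) was called higher in the epithelium and 3 (37.5%, against 15.9%) in the mesenchyme. The mesenchymal count was 2 after quantile normalization or loess and with equal medians, and the class median of -0.25 turned to 0.04 with the first and 0.05 with the last. B3gnt3 (1422211_a_at), which elongates core 1 chains, stood at 9.7, 10.1 and 9.4 in epithelial pools against 8.4, 8.3 and 8.3 in mesenchymal ones. Its arrays did not overlap between tissues, and the difference was 1.40 ± 0.23 (2.64-fold, adjusted p = 4.63e-06). B3gnt9 (1435468_at) went the other way, at 6.0, 6.3 and 6.5 against 9.6, 9.3 and 9.2, a measured difference of -3.10 ± 0.23 (at least 5.16-fold against a level of 7, adjusted p = 4.95e-14). B3gnt5 (1420994_at), which starts the lacto-series of glycolipids, stood at 6.7, 7.2 and 7.0 against 9.7, 9.5 and 9.5.

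For B3gnt5 the difference was -2.60 ± 0.23 (at least 5.92-fold against a level of 7, adjusted p = 3.98e-12), and the epithelial level of B3gnt9 lay near that of the bacterial controls. The dimmer probe set of B3gnt5, at 5.3 to 5.9 in all arrays, was not called (-0.33 ± 0.23), and the mean of both was -1.47. B3gnt8 (1425128_at) was at 7.3, 7.5 and 7.5 against 8.8, 8.2 and 8.3, again just 2-fold (-1.0 ± 0.23, adjusted p = 0.000543). The call of B3gnt8 ended without epithelium A (-0.93) or mesenchyme A (-0.82), and with quantile normalization (-0.68), loess (-0.79) and equal medians (-0.70). B3gnt6, the core 3 synthase, stood at 8.4, 8.6 and 8.5 in epithelial pools against 8.5, 8.4 and 8.9 in mesenchymal ones. These overlapped (-0.10 ± 0.23), and B3gnt2, B3gnt4 and B3gnt7 likewise were not called (-0.40 to 0.17).

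By their brightest probe sets, 1 of the 12 galactosyltransferases was called. It was B4galt1, the main beta4 enzyme for N-glycan antennae, or 14.3% of 7 beta4 genes against 15.9% of all genes. It stood at 9.2, 9.7 and 9.1 in epithelial pools against 10.6, 10.5 and 10.7 in mesenchymal ones (1418014_a_at), a difference of -1.27 ± 0.23 (2.41-fold, adjusted p = 2.19e-05). The tissues did not overlap, though the call ended after quantile normalization (-0.99) and with equal medians (-0.97). A dimmer probe set of B4galt2 (1418080_at), at 7.2, 8.0 and 7.6 against 9.6, 9.6 and 9.5, was called at -1.97 ± 0.24 (3.91-fold, adjusted p = 8.95e-09 over probe sets), and the mean of the gene's probe sets was called too (-1.27). By their brightest probe sets B4galt2 (-0.57), B4galt3 (-0.70) and B4galt5 (0.60) passed the adjusted p below a 2-fold difference, and B4galt4, B4galt6 and B4galt7 did not pass (-0.53 to -0.10). None of the 5 beta3-galactosyltransferases was called by any of 16 probe sets, where 21.5% of all probe sets were called. B3galt5, which makes type 1 chains, differed by 0.30 ± 0.23, B3galt4 by 0.07 ± 0.23 and B3galt6 by -0.20 ± 0.23, while B3galt2 was dim in every array (4.8 to 5.5).

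Among brightest probe sets, the capping alpha2,3-sialyltransferases held the largest differences of all members. A dimmer probe set of St8sia4, described below, reached -4.13. St3gal1 (1418946_at), which sialylates core 1 chains, stood at 12.2, 12.7 and 12.7 in epithelial pools against 8.2, 8.0 and 8.8 in mesenchymal ones. St3gal4 (1425668_a_at), which acts on N-acetyllactosamine ends and whose promoter is printed above, stood at 13.2, 13.6 and 13.1 against 9.4, 9.6 and 9.7. Both were far higher in every epithelial array. The differences were 4.2 ± 0.24 for St3gal1 (18.4-fold, adjusted p = 4.18e-17) and 3.73 ± 0.23 for St3gal4 (13.3-fold, adjusted p = 2.52e-16). The dimmer probe set of St3gal1, at 7.7 to 8.3, was not called (-0.27 ± 0.23), and the mean of both was 1.97. St3gal3 (1450406_a_at) was at 10.7, 11.4 and 11.3 against 10.0, 10.0 and 9.7, a difference of 1.23 ± 0.24 (adjusted p = 4.46e-05) that both its probe sets called, but that fell under 2-fold with equal spike-in controls (0.97).

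St3gal2, which acts on core 1 chains and gangliosides, went against its relatives. The probe set 1421890_at stood at 8.6, 8.3 and 9.0 in epithelial pools against 9.7, 9.9 and 9.7 in mesenchymal ones. All 3 probe sets of the gene were called, the brightest at -1.13 ± 0.23 (adjusted p = 0.000123) and the others at -2.57 ± 0.23 and -1.07 ± 0.25. The call of the brightest ended without epithelium B (-0.97), after quantile normalization (-0.81) and loess (-0.85) and with equal medians (-0.83), whereas the probe set at -2.57 was far from that limit. St3gal5, the GM3 synthase, was at 10.3 to 10.9 in all arrays (0.37 ± 0.23). Thus 2 enzymes that share core 1 as a substrate, St3gal1 and St3gal2, were called in opposite directions.

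**Figure D2:**
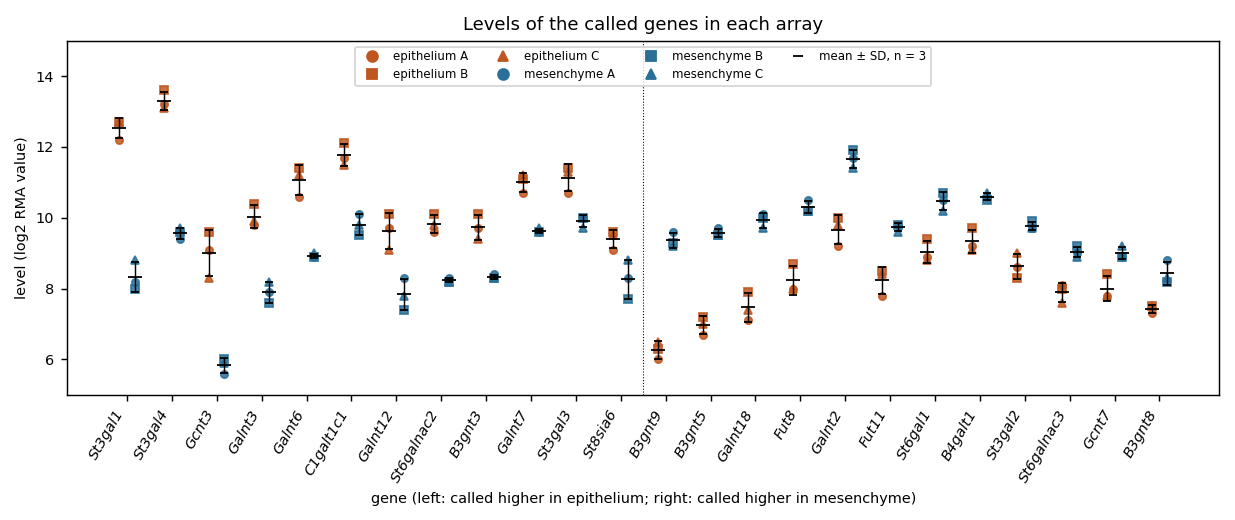
Levels (log2 RMA value, y axis) of the 24 called genes (x axis) in each array, with symbols for the pools A, B and C, and black bars for the mean ± SD of 3 arrays; the genes left of the dotted line were called higher in the epithelium, those right of it in the mesenchyme. For each gene the arrays of the tissues do not overlap, from St3gal1 (12.2 to 12.7 against 8.0 to 8.8) to B3gnt8 (7.3 to 7.5 against 8.2 to 8.8). The genes were picked by their difference in these same arrays, so the lack of overlap adds no support.

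Among 6 alpha2,6-sialyltransferases that act on N-acetylgalactosamine, 1 was called higher in each tissue. Each is 16.7% of the class, against 8.20% of all genes in the epithelium and 15.9% in the mesenchyme. St6gal1, the enzyme for N-glycans, lay higher in the mesenchyme. St6galnac2 (1417616_at), which acts on core 1 chains, stood at 9.6, 10.1 and 9.8 in epithelial pools against 8.3, 8.2 and 8.2 in mesenchymal ones. Every epithelial array was higher, with a difference of 1.60 ± 0.23 (3.03-fold, adjusted p = 2.70e-07), although the gene's dimmer probe set showed 0.00 ± 0.23 and the mean of both came to 0.80. St6galnac3 (1420902_at), known for gangliosides and sialylated core 1, stood at 8.1, 8.0 and 7.6 against 9.0, 9.2 and 8.9, a difference of -1.13 ± 0.23 (adjusted p = 0.000101). Its other probe sets showed larger differences, -3.50 ± 0.23 for 1440121_at, at 6.4, 6.9 and 6.5 against 10.2, 10.1 and 10.0, and -3.20 ± 0.25 for 1420903_at, and the mean of all 3 was -2.61. The call of the brightest probe set ended without epithelium C (-0.98), after quantile normalization (-0.79) and loess (-0.89) and with equal medians (-0.83).

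St6gal1 (1420928_at) stood at 8.9, 9.4 and 8.8 in epithelial pools against 10.5, 10.7 and 10.2 in mesenchymal ones. This was a difference of -1.43 ± 0.24 (2.70-fold, adjusted p = 3.91e-06) without overlap, and the second probe set was at -0.33 ± 0.23, so that their mean was under 2-fold (-0.88). The enzyme is abundant in lymphocytes and liver, and 7 of 10 leukocyte markers were called higher in the mesenchyme. Their summed levels, 13.7 to 14.1 in the epithelium and 14.6 to 14.7 in the mesenchyme, lie close together because a single probe set, that of Csf1r, stands at 13.1 to 13.8 in all arrays. Ptprc (-4.40), C1qb (-4.80) and Coro1a (-4.37) were far lower in the epithelium. The lymphocyte markers Cd79a (0.33 ± 0.24) and Cd3e (-0.10 ± 0.23) were not called. The part of leukocytes in the St6gal1 result was not tested. St6galnac1, the sialyl-Tn synthase, was at 8.8, 9.1 and 9.2 against 8.6, 8.8 and 9.1, which overlapped (0.20 ± 0.23). St6galnac4 (-0.73 ± 0.23) and St6galnac6 (-0.77 ± 0.23) passed the adjusted p below a 2-fold difference, and St6galnac5 (0.00) and the dim St6gal2 (-0.50) did not pass.

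Among the 6 alpha2,8-sialyltransferases, St8sia6 alone was called by its brightest probe set, and its probe sets were called in opposite directions. For this enzyme, which adds a second sialic acid on O-glycans, 1438566_at stood at 9.1, 9.6 and 9.5 in epithelial pools against 8.3, 7.7 and 8.8 in mesenchymal ones, a difference of 1.13 ± 0.25 (adjusted p = 0.000322). By contrast 1456440_s_at stood at 7.1, 6.6 and 6.7 against 8.3, 7.8 and 7.8, a difference of -1.17 ± 0.24 (adjusted p = 0.000104 over probe sets). Against a level of 7 this is at least 1.95-fold, and the _s_at name marks probes that may read several transcripts. The third probe set, 1456147_at, showed -0.97 ± 0.23 and was not called. The tissues overlapped in neither called probe set, so no direction can be given for St8sia6 as a gene. The mean of its probe sets was -0.33 and not called. The first call ended without mesenchyme B (0.85) and with equal spike-in controls (0.87), the second after quantile normalization (-0.82), loess (-0.97) and with equal medians (-0.87). By their brightest probe sets, St8sia1, St8sia2, St8sia3, St8sia4 and St8sia5 differed by -0.47 to 0.10.

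For St8sia4 the call depended on the probe set. Its probe set 1419186_a_at stood at 5.7, 6.2 and 5.9 in epithelial pools against 10.1, 10.1 and 10.0 in mesenchymal ones, while the slightly brighter 1430391_a_at stood at 7.8, 8.2 and 7.9 against 8.2, 8.4 and 8.7. The former lay near the bacterial controls in the epithelium and gave a measured difference of -4.13 ± 0.23 (at least 8.38-fold against a level of 7, adjusted p = 1.30e-17 over probe sets). The latter showed -0.47 ± 0.23, and the mean of both was called toward the mesenchyme (-2.3). St8sia1, the GD3 synthase, likewise had 2 dimmer probe sets at -1.60 ± 0.23 and -1.30 ± 0.23 beside the brightest at -0.07 ± 0.23. Against a level of 7, the dimmer 2 are at least 2.52-fold and 1.66-fold. Polysialic acid and GD3 are known from the developing nervous system, and the enteric neuron and glia markers had summed levels of 11.3 to 11.5 in the epithelium and 13.9 to 14.1 in the mesenchyme; their part in these differences was not tested.

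In all, 9 genes were called only by a probe set other than the brightest, and they are named here after their values were seen. Toward the mesenchyme these were St8sia4, Fut10 (-2.17 ± 0.23), B4galt2 (-1.97 ± 0.24), Gcnt1 (-1.83 ± 0.27), St6galnac4 (-1.70 ± 0.23) and St8sia1. Gcnt1, the core 2 enzyme of leukocytes, stood at 5.4, 5.7 and 5.7 against 8.3, 6.8 and 7.2 by 1460431_at, where mesenchyme A was the highest. Against a level of 7, this is at least 1.35-fold. By its other probe set Gcnt1 stood at 6.8 to 7.4 in all arrays (0.07 ± 0.23). Toward the epithelium they were Fut2 (1.33 ± 0.25), Galnt1 (1.13 ± 0.23) and St3gal6 (1.03 ± 0.24). For St3gal6 the brightest probe set, 1447841_x_at, was at 10.5, 10.6 and 10.7 against 10.6, 10.9 and 10.9 (-0.20 ± 0.23), and its name marks probes that may read other transcripts. The call of the St3gal6 probe set 1449078_at ended without epithelium B (0.82) or mesenchyme C (0.92) and with equal spike-in controls (0.77). Counted by any probe set, 15 genes were called higher in the epithelium and 19 in the mesenchyme, with St8sia6 in both. The other 39 genes had no called probe set. This count was not made over all genes, and the shares by brightest probe set are no background for it.

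**Figure D3:**
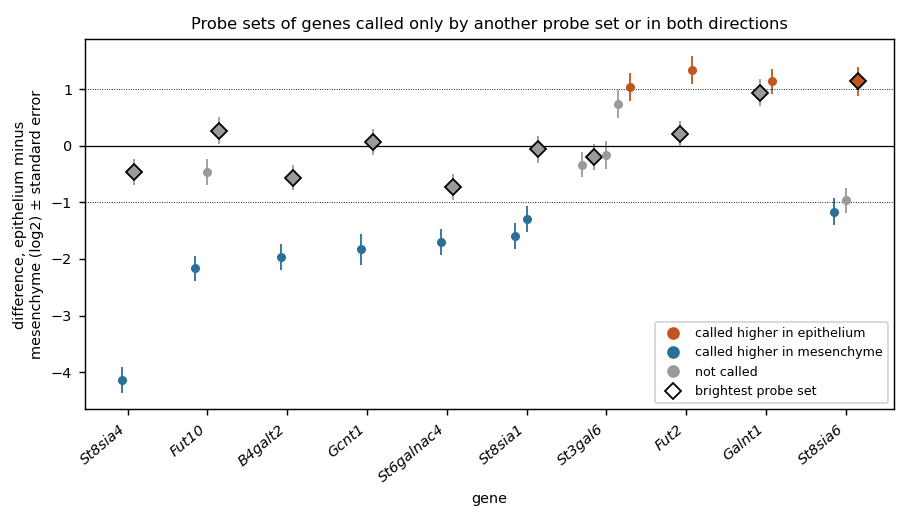
Difference between epithelium and mesenchyme (log2, y axis) of every probe set of the 10 genes (x axis) whose brightest probe set (diamond) was not called while another was, or whose probe sets were called in opposite directions; bars are standard errors and dotted lines mark a 2-fold difference. St8sia4 spans -4.13 to -0.47, and St8sia6 lies on both sides of 0.

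The fucosyltransferases, 8 genes, had none called higher in the epithelium (8.20% over all genes) and 2, or 25.0%, in the mesenchyme (15.9% over all genes) by their brightest probe sets. These counts are near the background. Fut8 (1460319_at), which adds the core fucose of N-glycans, stood at 8.0, 8.7 and 8.0 in epithelial pools against 10.5, 10.2 and 10.2 in mesenchymal ones. The tissues did not overlap, and the difference was -2.07 ± 0.24 (4.19-fold, adjusted p = 2.91e-09), with the other probe sets at 0.17 ± 0.23 and -0.83 ± 0.23 and a mean over all 3 of -0.91. Fut11 (1434123_at) stood at 7.8, 8.5 and 8.4 against 9.8, 9.8 and 9.6, a difference of -1.5 ± 0.24 (2.83-fold, adjusted p = 1.65e-06), and a second of its 3 probe sets was called at -1.60 ± 0.24.

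Among the enzymes of blood group and Lewis antigens, none was called by its brightest probe set, and Fut2 was called by another. Fut2, which makes the H antigen of secretions, was at 8.8, 9.0 and 9.0 against 8.5, 8.8 and 8.9 by its brightest probe set 1450246_at (0.20 ± 0.23). By 1434862_at it stood at 7.8, 8.2 and 7.2 against 6.3, 6.6 and 6.3, without overlap and with a measured difference of 1.33 ± 0.25 (at least 1.66-fold against a level of 7, adjusted p = 2.76e-05 over probe sets). Fut1 (0.00), Fut7 (0.03) and Fut9 (-0.53) were not called, and Fut4, which makes Lewis x structures, differed by -0.83 ± 0.24 in 1 probe set and 0.33 ± 0.23 in the other.

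Genes that supply or carry these chains were compared from lists by function. Of 10 measured mucins, 3 were called higher in the epithelium, the membrane mucins Muc13 (3.90 ± 0.23) and Muc3 (1.70 ± 0.24) and the gel-forming Muc2 (2.97 ± 0.26), and Muc16, a mucin of mesothelium, was higher in the mesenchyme (-1.47 ± 0.23). Muc1 (-0.43), Muc4 (0.90) and the other mucins were not called. Of 10 mucin-like glycoproteins of vessels, leukocytes and stroma, 5 were called, all toward the mesenchyme, among them thrombomodulin (Thbd, -5.40 ± 0.23), Cd34 (-4.53 ± 0.23), endomucin (Emcn, -3.70 ± 0.23) and Madcam1 (-2.63 ± 0.23), a gene on which the pools had been chosen. The shares called in the epithelium and the mesenchyme were 30.0% and 10.0% of the mucins, and 0.0% and 50.0% of the second list. Over all genes they were 8.20% and 15.9%. The median difference was -0.15 for the mucins and -1.43 for the second list, beside -0.17 over all genes. Epithelial levels of Thbd and Cd34 were under 7, so their differences are at least 23.7-fold and 20.6-fold against that level.

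Of 19 measured genes of nucleotide sugar synthesis, 11 (57.9%, against 8.20% of all genes) were called higher in the epithelium. Toward the mesenchyme 1 (5.26%, against 15.9%) was called, and the median difference was 1.17. The largest differences were those of Npl (4.2 ± 0.23) and Renbp (2.77 ± 0.23), which are known for the breakdown of sialic acid rather than its synthesis. They were followed by Uap1l1 (2.63 ± 0.23), a relative of the UDP-GlcNAc pyrophosphorylase, and by Pgm3 (2.23 ± 0.24), which acts in UDP-GlcNAc synthesis. Cmas, which activates sialic acid for all sialyltransferases, was called at 1.5 ± 0.23, whereas Gne and Nans, which make sialic acid, differed by 0.47 ± 0.23 each and were not called. Uap1 was the gene toward the mesenchyme (-1.07 ± 0.25), a call that ended without epithelium A (-0.80), after quantile normalization (-0.72) and loess (-0.80), with equal medians (-0.77) and in the mean of its probe sets (-0.67).

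Golgi transporters of nucleotide sugars had 4 of 10 called in the epithelium (against 8.20% of all genes) and none in the mesenchyme (against 15.9%). Their median difference was 0.57. The 4 called were the GDP-fucose transporter Slc35c1 (2.10 ± 0.24), the UDP-GlcNAc transporter Slc35a3 (1.57 ± 0.24), Slc35a5 (1.5 ± 0.26) and Slc35c2 (1.07 ± 0.23). Slc35a5 turned to -0.03 when probe sets that may read several transcripts were left out. The mean of the Slc35a5 probe sets was under 2-fold (0.79). Slc35c2 fell under 2-fold without epithelium B (0.97) and with equal spike-in controls (0.81). The transporters of CMP-sialic acid, Slc35a1 (0.23 ± 0.24), and of UDP-galactose, Slc35a2 (0.17 ± 0.23), were not called. Of 9 measured sulfotransferases, Gal3st2, which sulfates galactose, was called in the epithelium (2.03 ± 0.23) and Chst1 in the mesenchyme (-1.83 ± 0.23). Each is 11.1% of that list, against 8.20% and 15.9% of all genes.

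Of 24 related transferases outside the name rule, 6 (25.0%, against 8.20% of all genes) were called in the epithelium and 5 (20.8%, against 15.9%) in the mesenchyme, and in the mean of probe sets the former count was 3. B4galnt2, which makes the Sda antigen of the gut, led the former (3.43 ± 0.23), followed by the N-glycan branching genes Mgat4c (3.00 ± 0.25) and Mgat4a (2.67 ± 0.24) and by B4galnt1 (1.40 ± 0.23), a ganglioside enzyme. Toward the mesenchyme were the globoside synthase B3galnt1 (-3.23 ± 0.26), the Notch-modifying Lfng (-2.23 ± 0.23), A4galt (-2.20 ± 0.23) and Pofut2 (-1.57 ± 0.24). Among 7 genes of sialic acid removal and modification, 3 (42.9%, against 8.20% of all genes) were called in the epithelium. These were the lysosomal sialidase Neu1 (4.30 ± 0.23), its protective protein Ctsa (2.57 ± 0.23) and the esterase Siae (1.40 ± 0.23). In the mesenchyme 1 (14.3%, against 15.9%) was called, Casd1 at -1.0 ± 0.23. The last call ended under 3 scalings and without each of epithelium A (-0.87), epithelium C (-0.97), mesenchyme A (-0.98) and mesenchyme B (-0.98).

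Of 13 measured lectins that bind such chains, 4 (30.8%, against 8.20% of all genes), all galectins, were called in the epithelium. They were Lgals4 (4.2 ± 0.24), Lgals2 (4.10 ± 0.24), Lgals3 (2.63 ± 0.24) and Lgals9 (1.20 ± 0.24). Lgals1 (-5.10 ± 0.23) and the macrophage lectin Clec10a (-1.10 ± 0.26) were called in the mesenchyme (15.4%, against 15.9% of all genes). The call of Lgals9 ended without epithelium B (0.98) and with equal spike-in controls (0.94). That of Clec10a ended without epithelium C (-0.88) or mesenchyme A (-0.87), after quantile normalization (-0.79) and loess (-0.88) and with equal medians (-0.80). Adjusted p-values for the called genes of these 8 lists were at most 0.000683, by limma.

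**Figure D4:**
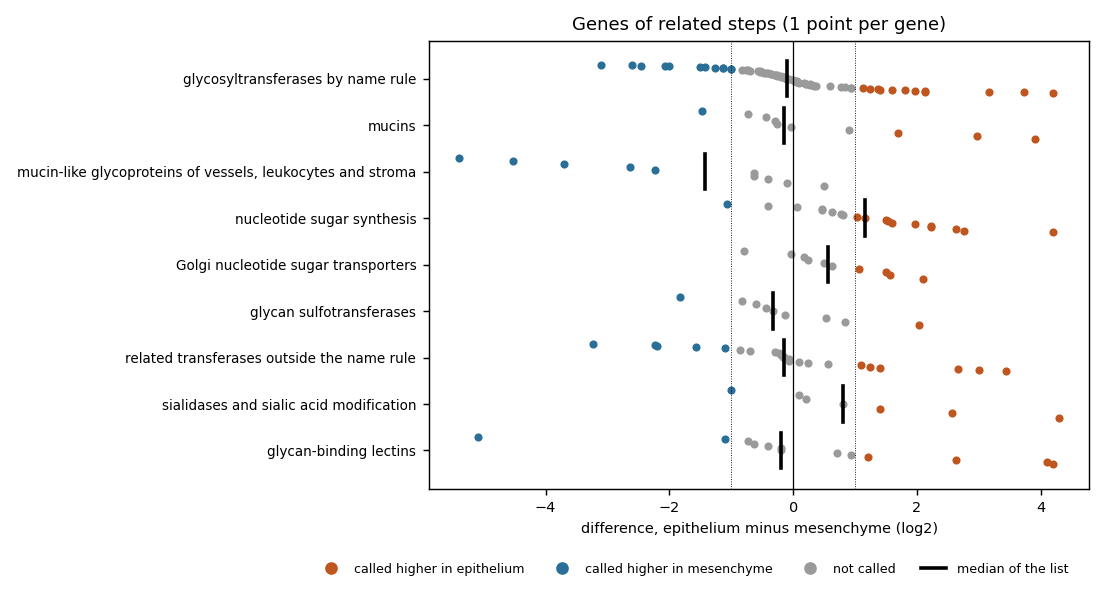
Difference between epithelium and mesenchyme (log2, x axis) of the 72 glycosyltransferase genes and of the genes in 8 lists of related function (y axis); each point is a gene, a black bar is the list's median and dotted lines mark a 2-fold difference. Medians range from -1.43 (mucin-like glycoproteins) to 1.17 (nucleotide sugar synthesis), with the glycosyltransferases at -0.10.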

How the data were processed

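The 6 arrays measured 45101 probe sets. The authors deposited log2 expression values made with RMA, per the submitters' processing notes, with version and settings not given in the sources used here. Array medians differ, so the scaling between arrays is unknown. Of the probe sets, 64 controls were set aside; the platform annotation names 1 gene for 34945 of the others, several for 932 and none for 9160, and symbols were updated to RefSeq (GRCm38.p6). The brightest probe set (by its average of the 6 arrays) represented a gene. The fit used limma 3.58.1 (lmFit, eBayes; R 4.3.3) across all 45037 probe sets, with 4 residual and 31.7 prior degrees of freedom, no covariate and no further scaling. Adjusted p-values are by Benjamini-Hochberg over all genes, or over all probe sets where a probe set is named as such. A call needs an adjusted p under 0.05 and a log2 difference of at least 1. The script was tested on simulated data.

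Members and lists were chosen with earlier results of these data known. Per-array values are given for up to 3 called genes with the largest difference per class and direction and for genes with probe sets called in both directions; lists give up to 4 called genes per direction. Other genes named from the lists were chosen after their values were seen. Alternatives were 4 scalings, a filter on dim probe sets (mean under 7), leaving out _x_at and _s_at probe sets, another variance model, no minimum difference, the mean of probe sets, the letter as a block and leaving out each array. Precision is limited by the number of arrays. Promoter windows are from RefSeq (GRCm38.p6).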

Additional observations from a re-analysis of the deposited data

How the results depend on the processing

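Each choice was changed by itself. The genes called higher in the mesenchyme numbered 7 after quantile normalization and 7 with equal medians, against 12, and the probe sets called higher in the epithelium numbered 31 with no minimum difference, against 19. Other counts over all members stayed within 1.5 times of the deposited values, but some counts by class moved further. For example, the epithelial count of GalNAc transferases went from 4 to 7 with equal medians, that of core 1 genes from 1 to 2 after quantile normalization, loess and with equal medians, and that of all 20 sialyltransferases from 5 to 3 with equal spike-in controls or the mean of probe sets. The mesenchymal count of sialyltransferases went from 3 to 1 after quantile normalization, loess and with equal medians. Leaving out 1 array gave 12 to 14 genes for the epithelium and 10 to 12 for the mesenchyme. Of the 24 called genes, 8 of 12 and 5 of 12 (epithelium and mesenchyme) kept their call in all 15 alternatives. St8sia6 turned to -0.33 in the mean of its probe sets, and St3gal6, not called by its brightest probe set, was called at 1.03 once _x_at and _s_at probe sets were left out, because another probe set then stood for it. Of 48 called genes from the lists, 35 kept their call in every alternative. With the letter as a replicate block, 12 and 12 genes and 19 and 27 probe sets were called. The labels do not say whether the letters pair the pools. Deviations from the tissue means correlated at -0.31 (A), -0.15 (B) and 0.12 (C). Epithelium B and mesenchyme A, of different letters, reached 0.36. With 3 arrays per tissue, such values cannot tell whether the pools were paired. Signal near that of bacterial controls limits the genes with a tissue mean under 7.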

Other observations

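A few probe sets near the name rule fell outside it. Galnt17, a further GalNAc transferase that the annotation lists under an older symbol, stood at 7.8, 7.9 and 7.8 in epithelial pools against 7.1, 7.6 and 7.8 in mesenchymal ones by 1452567_at (0.33 ± 0.23), and its second probe set showed -0.20 ± 0.23. Neither was called. A probe set assigned to both Ccdc24 and B4galt2 (1456905_at) stood at 7.1, 8.0 and 7.4 against 8.5, 8.1 and 8.2, without overlap, and differed by -0.77 ± 0.24, under 2-fold. These genes were looked up after the values were seen.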
